A study of Mus musculus with 20 samples.

Results

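The colons described here came from 8 chow-fed mice of a series of 20 colon libraries in 5 groups of 4 animals. The comparison set 4 mice that lack Pcca in the liver (genotype Pcca Alb, made with Albumin-Cre, called Alb below) against 4 floxed mice without Cre (Pcca ff, called ff), and it used every gene in the deposited chow counts. The design text calls the ff animals littermate controls of the Villin-Cre line and does not say whether the Alb animals shared their litters. The 4 chow-fed mice that lack Pcca in the intestine (Pcca Vill, made with Villin-Cre, called Vill) served as a further reference for the same genes. All 12 of these animals ate standard chow and were killed at 9 weeks of age after a 4 h fast. Colon pieces were flushed, frozen and extracted whole, so epithelium, muscle, nerve, stroma and immune cells are all in each RNA. In such bulk samples, fewer cells of a type and less RNA per cell cannot be told apart.

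Propionyl-CoA carboxylase turns propionyl-CoA into methylmalonyl-CoA in mitochondria, and Pcca and Pccb encode its alpha and beta subunits. Colon bacteria make propionate, the portal vein carries it to the liver, and the liver clears most of it. Because Albumin-Cre is active in hepatocytes and not in colon cells, the Alb colon keeps its own Pcca, and the comparison asks how a colon differs when the liver cannot use propionate by this route. Cholesterol balance is introduced here because its gene list was already known from earlier work on these libraries to be low. When sterols in the endoplasmic reticulum are low, the transcription factor SREBP2, encoded by Srebf2, is cut and released, and it raises the genes of cholesterol synthesis and uptake.

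Read totals were 33632903 to 35810214 in the ff libraries and 27936613 to 38019489 in the Alb libraries, and mitochondrial transcripts took 3.14 to 3.92% and 3.37 to 4.07% of them. All 12 libraries had the female pattern of Xist with no Ddx3y read. The marker list of colonocytes (14 tested genes) had a mean level of 8.89 to 9.72 log2 CPM in ff and 8.89 to 9.61 in Alb, where CPM is a gene's counts per 1e+06 counts of the scaled library. Library Alb 2 carried the squamous keratins Krt5 and Krt14 at 39.7 and 35.1 CPM, against at most 0.44 and 1.76 CPM in the other 7 Alb and ff libraries. Library ff 2 held small intestine genes at a list mean of 4.26 log2 CPM, against 1.20 to 1.93 in the other ff libraries. The first principal component took 56.3% of the variance and put ff 2 with Alb 1 and Alb 3, so it did not follow the genotype. Vill 1 and Vill 4 lay on the same side.

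Pcca itself (ENSMUSG00000041650, mm39 chromosome 14, 122771736 to 123128512) was at 58.3, 38.9, 41.1 and 43.6 CPM in Alb animals 1 to 4 and at 54.0, 39.5, 57.2 and 40.8 CPM in ff animals 1 to 4. The groups overlapped, and Alb colons held 94.9% of the ff level. The log2 fold change was -0.08 (SE 0.16, 95% interval -0.42 to 0.26), with an edgeR adjusted p of 0.99. Pccb was likewise close, at 135 ± 23.0 CPM in Alb and 132 ± 20.3 CPM in ff (SD, n = 4). These counts check the colon only, because liver RNA of these mice was not analysed here, and reads outside the floxed part also count towards Pcca. Pcca overlaps Ggact on the opposite strand (means of 46.7 and 30.2 CPM), and it was not settled whether the counts keep the strand. Vil1, the villin gene of the epithelium whose promoter drives the other Cre line, was at 972, 620, 997 and 668 CPM in Alb and 785, 1330, 892 and 718 CPM in ff (log2 -0.19, SE 0.25). The albumin gene Alb, a marker of liver RNA, was at 2.29 to 8.31 CPM in the Alb group and 0.09 to 3.01 CPM in ff.

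Across all 19701 tested genes no difference between Alb and ff colons passed the main test, with a median SE of 0.26 log2. The quasi-likelihood test of edgeR called 0 genes (0%) at an adjusted p under 0.05, and its smallest adjusted p was 0.855. An unadjusted p under 0.05 was reached by 342 genes higher in Alb (1.74%) and 525 lower (2.66%). With only the 8 Alb and ff libraries in the fit these counts were 397 and 390, so the lean towards lower genes was not seen there. For 242 genes (1.23%) every Alb animal lay above every ff animal, and for 314 genes (1.59%) every Alb animal lay below. Limma-voom also called 0 genes (0%), and DESeq2 called 11 of the 18896 genes to which it gave an adjusted p (0.0582%). The median log2 fold change over all genes was 5e-04, and 49.9% of genes were lower in Alb. The plot of fold change against level shows where the gene groups described below lie in this cloud.

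**Figure D1:**
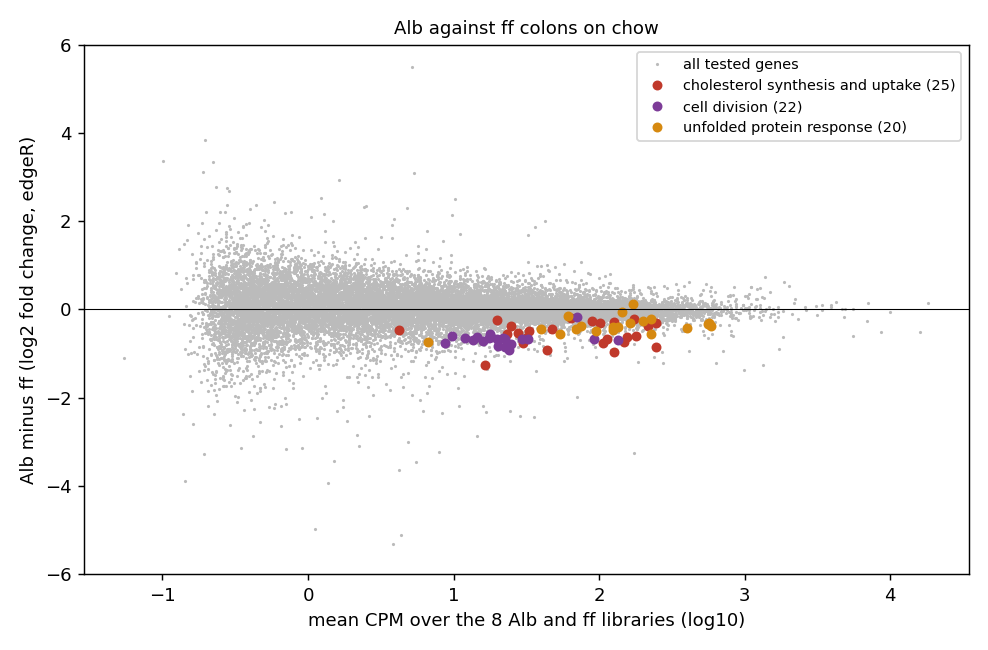
Alb minus ff log2 fold change (vertical) against the mean CPM of the 8 libraries on a log10 scale (horizontal), 1 point per tested gene. The 25 cholesterol genes and the 22 cell division genes all lie below 0, as do 19 of the 20 genes of the unfolded protein response.

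The 11 genes called by DESeq2 were 5 that were lower and 6 that were higher in Alb colons. In all 11 the Alb and ff groups did not overlap, which held for 1.23% (higher) and 1.59% (lower) of all genes. Without overlap, an exact permutation test must give 0.0286, the smallest two-sided p that 4 against 4 animals allow. The 11 were picked from these same libraries, so neither value adds separate support. None was called by edgeR or limma-voom, so these calls depend on the tool.

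Hsd17b12 encodes a 3-ketoacyl-CoA reductase of the fatty acid elongation cycle. It stood at 68.1, 75.9, 84.2 and 79.3 CPM in Alb and at 104, 102, 106 and 110 CPM in ff. Each Alb animal was thus below each ff animal, and also below the Vill range of 95.3 to 102 CPM. The log2 fold change was -0.45 (SE 0.08), with a DESeq2 adjusted p of 0.00106 and an edgeR adjusted p of 0.855. Idi1, the isopentenyl diphosphate isomerase of the mevalonate pathway, was at 36.6, 27.9, 29.7 and 26.4 CPM in Alb and 60.3, 65.6, 48.1 and 55.5 CPM in ff. Alb colons held 52.5% of the ff level, again with no overlap. Its log2 fold change was -0.93 (SE 0.16), with a DESeq2 adjusted p of 0.00241 and an edgeR adjusted p of 0.855.

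Ldah, a serine hydrolase that sits on lipid droplets, was at 55.3, 57.3, 53.4 and 56.1 CPM in Alb and 73.7, 68.1, 70.8 and 74.7 CPM in ff. The Alb animals spread over less than 4 CPM, and the log2 fold change was -0.37 (SE 0.07, DESeq2 adjusted p 0.00241). Gapdh, the glycolytic dehydrogenase, was at 16.2, 14.6, 16.4 and 16.7 CPM in Alb and 21.1, 21.9, 30.1 and 25.4 CPM in ff. That level is low for this gene, whose reads are shared with many near-identical pseudogenes, so the value is uncertain (log2 -0.62, DESeq2 adjusted p 0.00906). Gapdh also overlaps Iffo1 on the opposite strand. Cd101, an inhibitory receptor of leukocytes, was at 0.28, 0.18, 0.29 and 0.28 CPM in Alb and 0.93, 1.16, 0.52 and 0.97 CPM in ff. All of these levels are close to the detection limit, and the log2 fold change was -1.78 (SE 0.34, DESeq2 adjusted p 0.0362).

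In the other direction Cirbp led, a gene for an RNA-binding protein induced by mild cold and by the daily temperature rhythm. It was at 53.4, 55.5, 54.5 and 44.9 CPM in Alb and 28.6, 31.6, 34.8 and 28.4 CPM in ff. Every Alb animal lay above all 8 ff and Vill animals, and the log2 fold change over ff was 0.75 (SE 0.14, DESeq2 adjusted p 0.00337). Foxn3, a forkhead repressor known for its part in liver glucose output, was at 107, 101, 116 and 92.8 CPM in Alb and 73.7, 66.5, 77.4 and 77.6 CPM in ff (log2 0.50, SE 0.10). Klf11, a Krüppel-like zinc finger factor, was at 18.4, 18.5, 20.6 and 20.0 CPM against 12.8, 13.3, 15.7 and 15.3 CPM (log2 0.44, SE 0.11). Both transcription factors also lay above the whole Vill range.

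Fgfr2, a receptor for fibroblast growth factors made by epithelium, was at 98.3, 80.7, 80.3 and 72.1 CPM in Alb and 56.0, 63.1, 59.5 and 60.7 CPM in ff (log2 0.47, SE 0.10). Its annotated span (mm39 chromosome 7, 129764181 to 132725079) runs over several neighbouring genes, so its count may be affected by them. Ocrl, an inositol 5-phosphatase, was at 45.6, 41.1, 44.9 and 39.8 CPM in Alb and 33.5, 33.7, 36.0 and 30.8 CPM in ff (log2 0.36, SE 0.08). Ccdc66, a protein of cilia and centrosomes, was at 14.6, 13.9, 12.1 and 12.3 CPM against 8.22, 9.64, 9.28 and 7.84 CPM (log2 0.60, SE 0.12). Ccdc66 overlaps the more abundant Tasor on the opposite strand, and it was not settled whether the counts keep the strand.

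**Figure D2:**
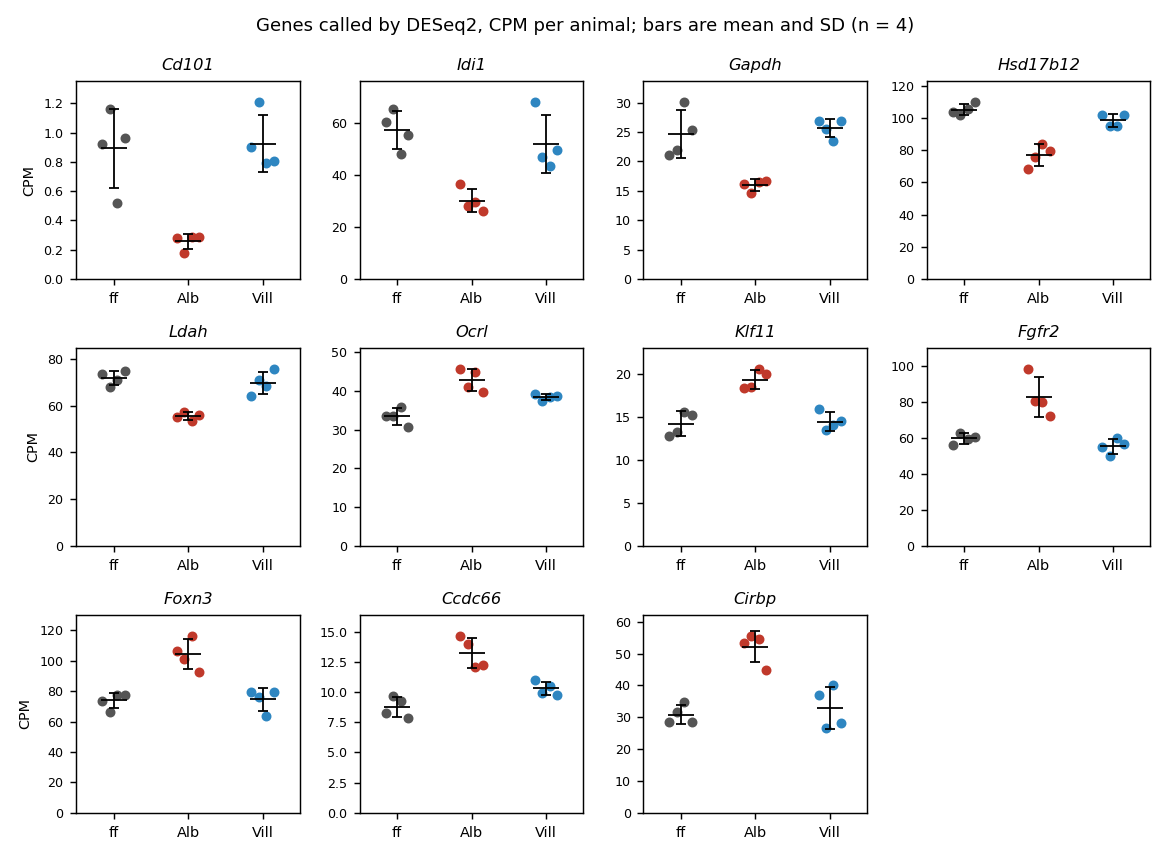
CPM (vertical, from 0) of the 11 genes that DESeq2 called between Alb and ff, 1 point per animal, with the mean and SD of 4 animals. In each of the 11 panels the Alb points lie apart from both the ff points and the Vill points.

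The other genes among the 30 smallest p-values at a mean of at least 2 CPM were not called by any of the 3 tools, and their edgeR adjusted p was 0.99. Tfrc, the transferrin receptor through which cells take up iron, was at 145, 148, 178 and 188 CPM in Alb and 544, 410, 424 and 159 CPM in ff. Only ff 4 came within the Alb range, and the log2 fold change was -1.22 (SE 0.33). Oplah, the 5-oxoprolinase of the glutathione cycle, was at 42.2, 55.5, 36.7 and 36.3 CPM in Alb and 28.6, 31.2, 29.4 and 24.7 CPM in ff, with no overlap (log2 0.58, SE 0.15). Pdxk, the kinase that activates vitamin B6, was at 23.9, 30.3, 20.0 and 26.5 CPM in Alb and 14.8, 17.1, 18.7 and 16.3 CPM in ff, again with no overlap (log2 0.59, SE 0.16).

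Top1, DNA topoisomerase I, differed by -0.29 (SE 0.07) and Ptgr1, a prostaglandin reductase, by -0.48 (SE 0.12), each with Alb animals below all 8 others. The same held for Tnfrsf10b, a death receptor (log2 -0.55), for Ndufaf4, an assembly factor of respiratory complex I (-0.38), and for Swi5, a recombination repair factor (-0.24). The nuclear regulator C2cd4a (-1.04) and Parpbp, a regulator of homologous recombination (-1.01), were among the largest negative values at this level, at 1.78 to 3.56 CPM in Alb. Higher in Alb were Lamb2, a laminin chain of basement membranes (0.51), Grik5, a kainate receptor subunit of neurons (0.61), and Klhdc8b, a midbody protein (0.58). Laminins are rich in muscle and vessels and kainate receptors in nerve cells. The smooth muscle list ran at 8.05 to 9.31 log2 CPM in Alb and 7.94 to 8.90 in ff, and with that list as a covariate the differences were 0.48 for Lamb2, 0.60 for Grik5 and 0.50 for Klhdc8b. The smooth muscle list does not measure vessels or nerve cells, and whether cell content accounts for these differences was not tested. Oplah overlaps Exosc4, Klhdc8b overlaps Ccdc71 and Swi5 overlaps Golga2, each on the opposite strand.

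The genes of cholesterol synthesis and uptake stood lower in Alb colons as a group. All 25 tested members were lower in Alb, with a median log2 fold change of -0.53, where 49.9% of all tested genes were lower. An unadjusted p under 0.05 was reached by 17 of the 25 (68%), against 2.66% of all genes in that direction. In 9 of the 25 (36%) the groups did not overlap, against 1.59% of all genes. In 4 of them, Idi1, Msmo1, Mvd and Srebf2, each Alb animal was below all 8 ff and Vill animals, which held for 0.599% of all genes. None passed the edgeR adjusted test, and this list was known from earlier work on these libraries to be low, so its direction is a description.

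The list mean was 5.86, 5.46, 5.81 and 5.53 log2 CPM in Alb animals 1 to 4 and 6.07, 6.56, 6.06 and 6.19 in ff animals 1 to 4. Every Alb animal therefore lay below every ff animal, and also below the lowest Vill animal, at 5.97. The ff 2 library, which carried small intestine genes, was the highest ff value. Without it the median was -0.37, all 25 members were still lower, and 10 reached an unadjusted p under 0.05 (3.01% of all genes then did so, lower in Alb). Leaving out Alb 2, the lowest Alb value, gave a median of -0.47 and 13 members, against 1.9% of all genes.

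Among the early steps, Acat2, the cytosolic thiolase that makes acetoacetyl-CoA, was at 25.4, 24.8, 20.2 and 20.0 CPM in Alb and 34.4, 35.2, 27.1 and 34.2 CPM in ff (log2 -0.53, SE 0.16). Hmgcs1, the HMG-CoA synthase, was at 187, 122, 224 and 166 CPM in Alb and 187, 514, 255 and 315 CPM in ff. The ff 2 animal was far above the rest and ff 1 lay within the Alb range, so the groups overlapped (log2 -0.86, SE 0.32).

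In the mevalonate and isoprenoid steps, Mvk, mevalonate kinase, was at 22.9, 17.6, 16.4 and 18.5 CPM in Alb and 26.4, 34.5, 24.8 and 24.6 CPM in ff, with no overlap (log2 -0.55, SE 0.20). Mvd, the mevalonate diphosphate decarboxylase, was at 25.7, 16.2, 23.2 and 23.6 CPM in Alb and 29.3, 50.8, 31.7 and 38.9 CPM in ff (log2 -0.77, SE 0.22). Fdft1, squalene synthase, was at 95.6, 55.1, 92.2 and 75.0 CPM against 103, 189, 111 and 133 CPM (log2 -0.75, SE 0.25). Idi1, described above, had the smallest p of the list. Fdft1 overlaps the more abundant Ctsb on the opposite strand.

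In the sterol steps, Cyp51, the lanosterol 14-alpha demethylase, was at 112, 57.4, 89.9 and 82.8 CPM in Alb and 173, 227, 124 and 146 CPM in ff. Alb colons held 50.9% of the ff level with no overlap (log2 -0.97, SE 0.27), although Cyp51 overlaps Akap9 on the opposite strand. Msmo1, the methylsterol monooxygenase that follows it, was at 135, 98.5, 109 and 101 CPM in Alb and 163, 245, 148 and 187 CPM in ff, with no overlap (log2 -0.74, SE 0.17). Sc5d, the sterol C5 desaturase, was at 92.8, 87.4, 96.3 and 85.8 CPM against 98.5, 134, 109 and 107 CPM, a smaller difference without overlap (log2 -0.31, SE 0.10). Sqle, squalene epoxidase, was at 120, 51.1, 91.2 and 84.8 CPM against 104, 196, 116 and 139 CPM. Here Alb 1 lay above ff 1 and ff 3, so the groups overlapped (log2 -0.68, SE 0.26).

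Srebf2, the regulator itself, was at 214, 198, 234 and 240 CPM in Alb and 248, 326, 254 and 260 CPM in ff (log2 -0.30, SE 0.13). The groups did not overlap, and ff 2 was the highest animal. Stard4, a cytosolic sterol carrier, differed by -0.38 (SE 0.12). Hmgcs1, Sqle, Fdft1, Mvk, Sc5d, Srebf2 and Stard4 were named for their roles after their values were seen.

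**Figure D3:**
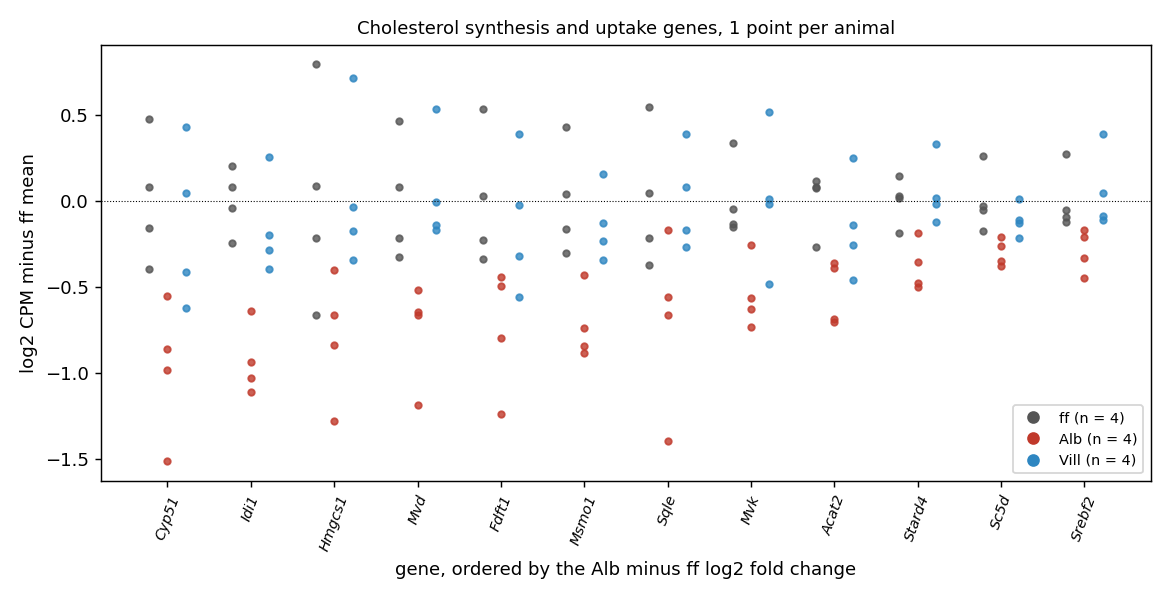
log2 CPM of each animal minus the ff mean (vertical) for the 12 cholesterol genes described in the text, ordered by their Alb minus ff fold change. The 4 Alb points of each of these genes lie below 0, with the most negative fold changes for Cyp51 and Idi1, while the Vill points lie around the ff points.

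Promoters of these genes are shown because the members stood lower together, and they come from RefSeq (build GRCm38.p6), as the 250 bases before the annotated start. A promoter was found for 17 of the 25 members. Here and below, a member counted as holding a motif when any of its promoters did. The share of all promoters counts each promoter singly, so the 2 shares are unlike measures and the member share can be the larger for that reason. The sterol response element was searched on both strands as TCACNCCAC, and 1 of the 17 (5.88%) held it, Hmgcs1, against 1.05% of all 32851 promoters. The CCAAT box, which NF-Y binds beside SREBP in such promoters, was searched as CCAAT on both strands, and 16 of the 17 (94.1%) held it, against 33.8% of all promoters. The sequence of Hmgcs1 (chr13:119690101-119690350, plus strand) has the sterol response element in capitals, and that of Idi1 (chr13:8885356-8885605, plus strand) has its 2 CCAAT boxes in capitals, both on the reverse strand.
Hmgcs1: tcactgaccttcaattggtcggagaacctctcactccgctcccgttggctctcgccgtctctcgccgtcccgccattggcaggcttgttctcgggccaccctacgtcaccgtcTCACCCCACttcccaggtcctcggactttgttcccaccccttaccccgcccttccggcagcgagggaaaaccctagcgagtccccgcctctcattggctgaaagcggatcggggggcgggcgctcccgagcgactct
Idi1: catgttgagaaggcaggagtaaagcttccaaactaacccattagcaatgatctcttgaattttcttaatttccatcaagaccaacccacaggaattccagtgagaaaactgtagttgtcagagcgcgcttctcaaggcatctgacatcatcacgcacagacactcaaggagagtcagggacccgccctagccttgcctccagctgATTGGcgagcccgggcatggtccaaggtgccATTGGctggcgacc
A match is a run of letters and not a measured binding site.

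Other lipid genes were less uniform. Of 18 tested genes of fatty acid synthesis and elongation 12 were lower in Alb (median log2 -0.07), and 2 (against 2.66% of all genes) reached an unadjusted p under 0.05, Hsd17b12 and Fasn. Fasn, the fatty acid synthase, was at 140, 147, 148 and 180 CPM in Alb and 182, 219, 216 and 219 CPM in ff (log2 -0.44, SE 0.20). The groups did not overlap, although Alb 4 lay just under ff 1. Of 13 targets of the liver X receptor and sterol export genes, which respond to sterol excess, 7 were higher and 6 lower (median log2 0.10), and 0 reached an unadjusted p under 0.05. Without Alb 2 that median was -0.03. Nr1h2, the receptor LXR-beta, was at 107, 104, 102 and 108 CPM in Alb and 99.3, 98.5, 101 and 93.5 CPM in ff, which is without overlap but a difference of 0.10 only.

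Cell division genes were lower in Alb as well. All 22 tested members stood lower in Alb, with a median log2 fold change of -0.67, and 18 (81.8%) reached an unadjusted p under 0.05, against 2.66% of all genes. In 1 member, Cenpe, the groups did not overlap, against 1.59% of all genes in that direction. The list mean was 3.90, 3.57, 4.53 and 4.38 log2 CPM in Alb animals 1 to 4 and 4.41, 4.59, 5.30 and 4.83 in ff. Alb 3 thus lay above ff 1, while Alb 1 and Alb 2 were the lowest of the 12 chow libraries.

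Cenpe, the kinesin that moves chromosomes at kinetochores, was at 11.4, 13.4, 19.6 and 20.6 CPM in Alb and 24.4, 22.8, 40.7 and 28.7 CPM in ff (log2 -0.85, SE 0.23). Prc1, which bundles the spindle midzone, was at 10.7, 9.40, 15.2 and 12.9 CPM in Alb and 14.7, 16.2, 29.4 and 19.0 CPM in ff, where Alb 3 overlapped (log2 -0.72, SE 0.22). Mki67, the proliferation marker Ki-67, was at 85.7, 75.5, 126 and 125 CPM in Alb and 122, 117, 239 and 184 CPM in ff (log2 -0.68, SE 0.25). In this gene ff 3 was the highest ff animal, as in Cenpe and Prc1. Ube2c and Cdc20, which act in the anaphase-promoting complex, differed by -0.91 (SE 0.32) and -0.84 (SE 0.29), and Tpx2, a spindle assembly factor, by -0.81 (SE 0.28). Plk1, a mitotic kinase whose reads overlap Gm44985 on the opposite strand, had the smallest difference of the list, -0.17 (SE 0.13). Prc1 overlaps Rccd1 and Cdc20 overlaps Elovl1, also on opposite strands, and Mki67, Cdc20 and Plk1 were named after their values were seen.

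The number of cell division members past the unadjusted threshold depended on single animals. Without ff 3 it was 3 of 22 with a median of -0.46 (2.53% of all genes then passed, lower in Alb). It was 7 without Alb 2 (1.9% of all genes), with a median of -0.51, and 8 without Alb 1 (1.71% of all genes), with a median of -0.61. With only the 8 Alb and ff libraries in the fit the number was 14, with a median of -0.66. All 22 members were lower in each of these fits. DNA replication genes, which act in S phase, were lower in 20 of 20 with a smaller median of -0.21, and 0 reached an unadjusted p under 0.05. Without ff 4 that median was -0.03, with 11 of 20 lower, and it was -0.10 without ff 3 and -0.08 without Alb 2. Stem cell and Wnt target genes were lower in 8 of 14, with a median of -0.02 and 0 past the unadjusted threshold, and without ff 4 the median was 0.13.

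Mitotic genes share promoter elements read late in the cell cycle, so one sequence of each kind is shown. Of the 18 members with a promoter, 16 (88.9%) held CCAAT on either strand, against 33.8% of all promoters. The cell cycle homology region, or CHR, searched as TTTGAA on both strands, was held by 8 of 18 (44.4%), against 16% of all. Prc1 (chr7:80294226-80294475, plus strand) has its CHR in capitals, and Cenpe (chr3:135212313-135212562, plus strand) has its CCAAT box in capitals.
Prc1: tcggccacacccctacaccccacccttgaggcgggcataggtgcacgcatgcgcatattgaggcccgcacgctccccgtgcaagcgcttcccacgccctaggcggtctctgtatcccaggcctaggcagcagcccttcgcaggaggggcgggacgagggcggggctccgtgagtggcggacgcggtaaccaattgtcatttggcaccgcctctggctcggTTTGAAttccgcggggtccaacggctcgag
Cenpe: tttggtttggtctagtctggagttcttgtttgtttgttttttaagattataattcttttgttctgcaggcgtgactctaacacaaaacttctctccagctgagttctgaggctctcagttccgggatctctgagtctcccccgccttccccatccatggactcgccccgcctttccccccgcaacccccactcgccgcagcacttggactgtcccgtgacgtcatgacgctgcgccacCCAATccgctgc
In both genes the capitals lie close to the annotated start, which follows the last base shown.

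Genes of the unfolded protein response, which expand the folding capacity of the endoplasmic reticulum in secretory cells, were lower in 19 of 20 members. Their median log2 fold change was -0.38, and 7 (35%) reached an unadjusted p under 0.05, against 2.66% of all genes. In 0 the groups did not overlap, against 1.59% of all genes in that direction. Sec61b, a subunit of the protein translocation channel, was at 50.1, 49.6, 60.9 and 74.7 CPM in Alb and 85.4, 63.4, 71.7 and 99.3 CPM in ff (log2 -0.44, SE 0.16). Pdia6, a disulfide isomerase, was at 156, 135, 199 and 244 CPM against 338, 183, 212 and 346 CPM (log2 -0.56, SE 0.23). Syvn1, the ubiquitin ligase of protein disposal from this compartment, was at 68.2, 48.1, 68.9 and 75.6 CPM against 95, 69.6, 73.2 and 97.9 CPM (log2 -0.36, SE 0.15). In all 3 genes ff 1 and ff 4 were the high animals, and Alb 4 lay within the ff range. Syvn1 overlaps Mrpl49 on the opposite strand.

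Hspa5, the chaperone BiP, was at 489, 329, 653 and 574 CPM in Alb and 786, 451, 469 and 930 CPM in ff, and it overlapped widely (log2 -0.37, SE 0.26). It was named after its values were seen. The list's count rested on these libraries: 0 members passed the unadjusted threshold without ff 1 (1.91% of all genes did, lower in Alb), 0 without ff 4 (1.6% of all genes) and 0 without Alb 2, with medians of -0.30, -0.24 and -0.25. Without Alb 1 the count was 2. It was also 2 with only the 8 Alb and ff libraries in the fit, so the 7 of the main fit depended on the Vill libraries too. In that fit 390 of all genes passed, lower in Alb. Of the 18 members with a promoter, 8 (44.4%) held the endoplasmic reticulum stress element in any of theirs, against 0.113% of all promoters counted singly. It was searched on both strands as CCAAT and CCACG with any 9 bases between them, so each match also holds a CCAAT box. Syvn1 (chr19:6046326-6046575, plus strand) shows it in capitals, spacer included.
Syvn1: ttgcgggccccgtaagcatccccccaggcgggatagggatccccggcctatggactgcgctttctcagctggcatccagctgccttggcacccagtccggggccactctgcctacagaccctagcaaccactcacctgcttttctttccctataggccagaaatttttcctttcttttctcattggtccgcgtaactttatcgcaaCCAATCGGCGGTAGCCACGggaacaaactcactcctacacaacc
Its position lies within the last 50 bases before the annotated start.

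Goblet cells, the mucus-secreting cells of the crypt, rely on this folding capacity, and 10 of their 11 tested markers were lower in Alb, with a median of -0.38 and 2 past the unadjusted threshold, against 2.66% of all genes. Agr2, a disulfide isomerase needed for mucin folding, was at 616, 489, 764 and 763 CPM in Alb and 1301, 744, 892 and 1088 CPM in ff. Its log2 fold change was -0.61 (SE 0.24). Ccl6, a chemokine on the same list, was at 143, 196, 201 and 213 CPM in Alb and 289, 218, 286 and 246 CPM in ff, with no overlap (log2 -0.47, SE 0.18). The list mean was lowest in Alb 2, at 9.12 log2 CPM, and 9.84 to 10.10 in the other Alb animals, against 9.92 to 10.55 in ff. Without ff 1, the highest ff animal, the median was -0.17 and 0 markers passed the unadjusted threshold, and 0 passed it without Alb 1.

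**Figure D4:**
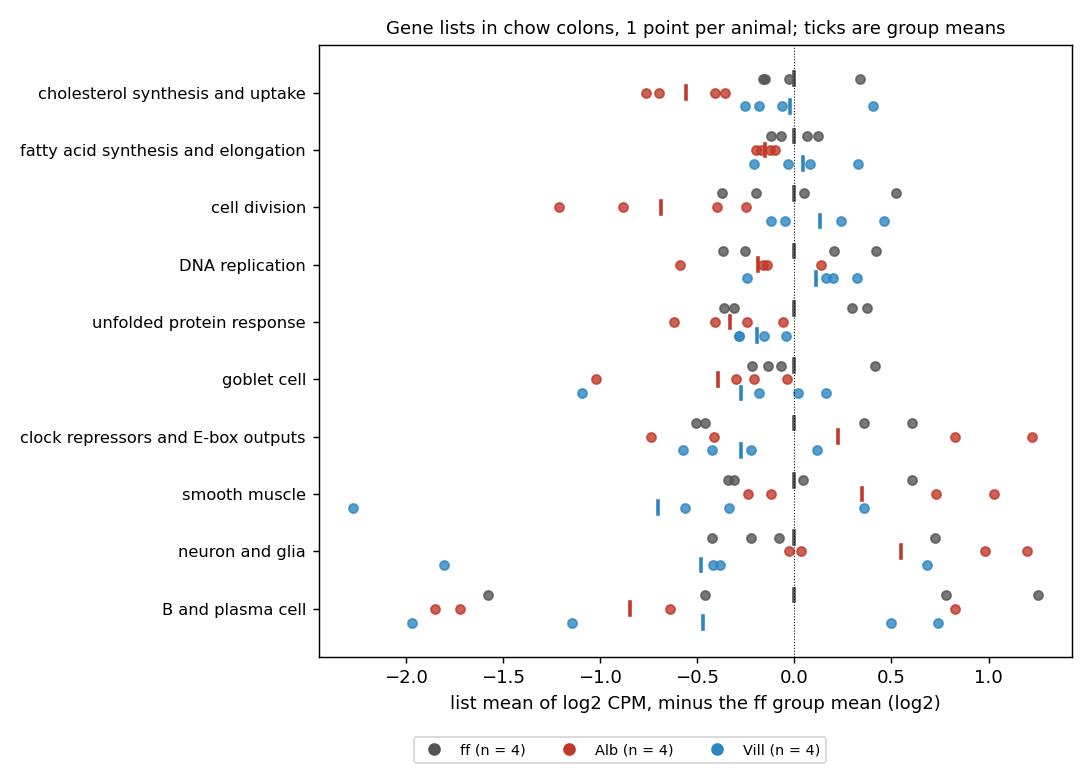
List mean of log2 CPM minus the ff group mean (horizontal) for 10 gene lists, 1 point per animal, with ticks at the group means. For cholesterol synthesis and uptake the 4 Alb points lie left of all ff and Vill points, while the ranges of Alb and ff overlap for each of the other 9 lists.

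Circadian clock genes differed more between animals than between genotypes. The clock is a loop in which Arntl and Clock or Npas2 drive the Per and Cry repressors and output factors such as Dbp and Tef, and each colon was taken at 1 time that the labels do not give. Tef was at 224, 308, 44.3 and 48.7 CPM in Alb animals 1 to 4 and 168, 167, 78.8 and 79.1 CPM in ff animals 1 to 4. Per2 was at 134, 157, 24.5 and 33.0 CPM in Alb and 71.9, 64.7, 24.6 and 28.5 CPM in ff. In both groups animals 1 and 2 were the high ones. Arntl ran the other way, at 13.0, 24.9, 72.9 and 61.5 CPM in Alb and 19.5, 22.4, 45.1 and 37.9 CPM in ff, with animals 3 and 4 high.

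Of the 13 tested repressors and outputs 12 were higher in Alb (median log2 0.45). An unadjusted p under 0.05 was reached by 1, Cry2, against 1.74% of all genes, higher in Alb. Without Alb 2 the median was -0.14 and 8 of 13 were lower, so the direction rests on that animal. Dbp (log2 0.40, SE 0.68), Per3 (0.62, SE 0.62) and Ciart (0.61, SE 0.85) had errors as large as their differences or nearly so. Cry2, a repressor of the loop, was at 73.1, 77.5, 48.6 and 35.5 CPM in Alb and 32.8, 42.0, 30.4 and 23.0 CPM in ff. Only Alb 4 lay within the ff range (log2 0.87, SE 0.24). Nr1d1, the repressor REV-ERB-alpha of Arntl, was at 106, 127, 51.7 and 71.1 CPM against 132, 108, 150 and 124 CPM, with Alb 2 in the ff range (log2 -0.54, SE 0.29). Dbp, Tef, Per3 and Ciart were named after their values were seen. Dbp, Nr1d1 and Ciart overlap a gene on the opposite strand (Sphk2, Thra and C920021L13Rik), and Per3 overlaps Camta1 on the same strand.

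**Figure D5:**
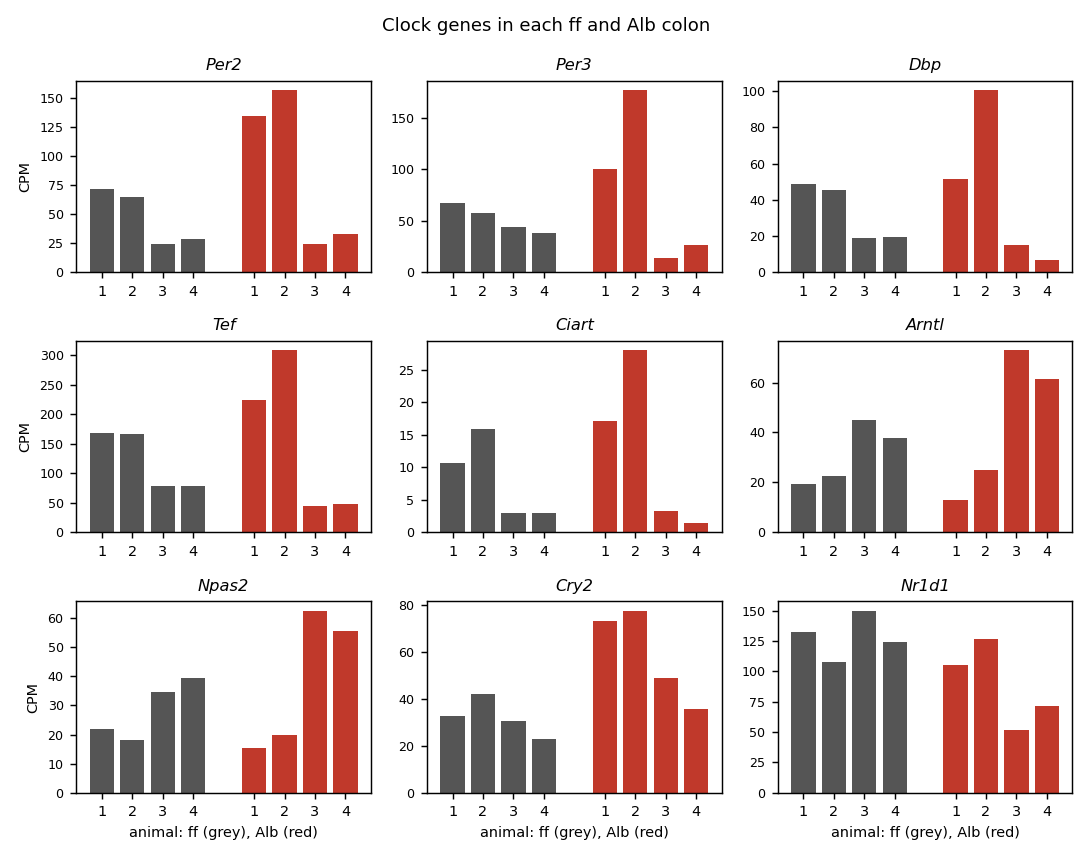
CPM (bars from 0) of 9 clock genes in each ff (grey) and Alb (red) animal, numbered 1 to 4 within its group. Per2, Per3, Dbp, Tef and Ciart are higher in animals 1 and 2 of both groups, and Arntl and Npas2 in animals 3 and 4.

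The E-box through which Arntl acts was searched as CACGTG, which reads the same on both strands. It was held by 5 of the 10 clock repressors and outputs with a promoter (50%), against 6.02% of all promoters. Cry1, a partner of Cry2, is shown with its E-box in capitals (chr10:85185055-85185304, minus strand, written in the direction of the gene). Its own level was 34.2, 22.8, 71.3 and 24.4 CPM in Alb and 16.4, 36.6, 21.1 and 15.0 CPM in ff, with the groups overlapping (log2 0.78, SE 0.49).
Cry1: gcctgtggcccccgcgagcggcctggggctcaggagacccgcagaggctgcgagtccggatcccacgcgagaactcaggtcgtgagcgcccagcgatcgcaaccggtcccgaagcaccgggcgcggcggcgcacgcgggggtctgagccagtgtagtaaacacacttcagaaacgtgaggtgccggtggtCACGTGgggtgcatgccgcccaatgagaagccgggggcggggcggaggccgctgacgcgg

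Cold-inducible and heat shock genes held Cirbp as the 1 member that was higher without overlap, against 1.23% of all genes. Of the 16 members 13 were lower (median log2 -0.18, and -0.08 without ff 1), 3 of them at an unadjusted p under 0.05 against 2.66% of all genes. Rbm3, the close relative of Cirbp, was at 115, 79.1, 77.2 and 89.1 CPM in Alb and 81.7, 75.5, 62.5 and 83.9 CPM in ff, a difference of 0.25 (SE 0.14) with overlap. Chordc1, a cochaperone of HSP90, was at 57.5, 50.6, 34.5 and 48.8 CPM against 74.6, 57.6, 55.1 and 64.4 CPM (log2 -0.40, SE 0.16). Bag3, a cochaperone of HSP70, differed by -0.20 (SE 0.08), and Hspe1, which overlaps Hspd1 on the opposite strand, by -0.29 (SE 0.13).

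In glycolysis, 11 of 18 genes were lower (median log2 -0.05), and 3 reached an unadjusted p under 0.05 (against 2.66% of all genes), Gapdh and Pgam1 among them. Without ff 2 the median was 0.06, with 12 of 18 higher. Pgam1, phosphoglycerate mutase, was at 125, 142, 128 and 141 CPM in Alb and 149, 172, 146 and 159 CPM in ff, with no overlap (log2 -0.22, SE 0.09). Oxidative phosphorylation genes were lower in 26 of 30, by a median of -0.08, with 0 past the unadjusted threshold. Without ff 2 the median was -0.0043, with 18 of 30 lower.

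Of 15 tested genes of the propionate pathway 9 were lower and 6 higher (median log2 -0.05), and 0 reached an unadjusted p under 0.05. Mmadhc, which handles vitamin B12 for methylmalonyl-CoA mutase, came nearest, at 56.1, 51.6, 60.4 and 56.6 CPM in Alb and 66.2, 68.4, 59.4 and 63.3 CPM in ff (log2 -0.20, SE 0.09). Breakdown of branched-chain amino acids, another source of propionyl-CoA, had 11 of 20 genes higher (median log2 0.03, and -0.02 without ff 2 or without Alb 2). Genes that sense or carry short-chain fatty acids had 6 of 10 higher (median log2 0.07, but -0.05 without Alb 1 and -0.06 without Alb 2). Slc16a1, the monocarboxylate transporter MCT1, was at 369, 523, 407 and 452 CPM in Alb and 360, 303, 448 and 358 CPM in ff, which overlapped (log2 0.25, SE 0.15). The median of the propionate list was 0.02 without ff 3, so none of these 3 lists kept 1 direction over the fits that left out an animal.

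Glucocorticoid targets were higher in 13 of 14, with a median of 0.33 and 2 past the unadjusted threshold (1.74% of all genes, higher in Alb). Without Alb 2 the median was 0.06 and 7 of 14 were higher. The members past the threshold were the metallothioneins, which bind zinc and copper. Mt1 was at 82.3, 137, 72.6 and 135 CPM in Alb and 34.5, 79.3, 71.8 and 54.2 CPM in ff (log2 0.83, SE 0.30), with overlap. Mt2 stood near the detection limit at 0.44 to 1.14 CPM in Alb and 0.06 to 0.35 CPM in ff, and it overlaps Gm45774 on the opposite strand. Acot2, a mitochondrial thioesterase and target of PPAR-alpha, was at 5.31, 5.48, 7.15 and 7.05 CPM against 3.27, 3.39, 5.18 and 4.88 CPM, with no overlap (log2 0.58, SE 0.21). The list of fatty acid oxidation genes had a median of 0.05, which was -0.08 without Alb 3. Among the other 25 genes of fatty acid oxidation 0 passed the unadjusted threshold. Xenobiotic genes were higher in 15 of 21 (median log2 0.17), but without Alb 1 the median was -0.02 and 12 of 21 were lower. Cyp1a1, a target of the aryl hydrocarbon receptor, was past the unadjusted threshold at a level of 0.28 to 0.93 CPM in Alb and 0.06 to 0.35 CPM in ff.

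Among markers of other cell types, those of smooth muscle were higher in 10 of 10 (median log2 0.41) and those of neurons and glia in 13 of 13 (median 0.52), and 0 of either reached an unadjusted p under 0.05. Without Alb 3 the smooth muscle median was 0.15, with 7 of 10 higher. The neuron and glia mean was 4.57, 3.41, 4.36 and 3.35 log2 CPM in Alb and 3.30, 4.10, 2.95 and 3.15 in ff, so Alb 1, Alb 3 and ff 2 were high, the 3 animals that the first principal component set together. Markers of B and plasma cells were lower in 13 of 13 (median -0.64), and those of germinal centres and follicles in 9 of 9 (median -0.72), again with 0 past that threshold. Without ff 4 these medians were -0.30 (11 of 13 lower) and -0.16 (7 of 9 lower), and without Alb 4 they were -1.29 and -2.12. Colonocyte markers had 8 of 14 higher (median 0.03, but -0.22 without Alb 3 and -0.37 with the smooth muscle covariate), interferon response genes 17 of 20 lower (median -0.32, 0 past the unadjusted threshold) and tuft cell markers 7 of 7 lower (median -0.42, 0 past it). Without Alb 2 the interferon median was -0.02 (12 of 20 lower) and the tuft median -0.17 (4 of 7 lower), and without ff 2 they were -0.06 and -0.19. Of 4 tested mast cell markers 3 were lower and 1 was higher. The proteases Mcpt1 and Mcpt2 were lower at an unadjusted p under 0.05, against 2.66% of all genes. Animal ff 2 held 29.5 and 10.3 CPM of them, against at most 3.72 and 1.79 CPM in the other ff animals. Without ff 2, and also with limma-voom, 0 mast cell markers passed that threshold.

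With the smooth muscle list as a covariate, the cholesterol median was -0.58 with 25 of 25 lower, the cell division median -0.67 with 22 of 22 lower, and the unfolded protein response median -0.39 with 19 of 20 lower. The DNA replication median moved to -0.11, with 15 of 20 lower. The neuron and glia median was 0.21 in that fit. Without ff 2 it was 0.99, and without Alb 1 it was 0.30. With the clock output list as a covariate, chosen after the values were seen, the cholesterol median was -0.59 and the cell division median -0.61, each with all members lower.

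The Vill colons, which themselves lack Pcca in the intestine and are not controls, gave a second set of values beside the same Alb animals. The Alb against ff and Alb against Vill values share the Alb libraries and are set side by side only. Against Vill, 1 gene was called by edgeR (0.00508%), Gm45774, and an unadjusted p under 0.05 was reached by 964 genes higher in Alb (4.89%) and 784 lower (3.98%). Cholesterol genes were lower than in Vill in 25 of 25, with a median of -0.50 and 19 past the unadjusted threshold, where 52.8% of all genes were lower. Cell division genes were lower in 22 of 22, with a median of -0.81 and 21 past that threshold. The unfolded protein response had a median of -0.11 against Vill, with 19 of 20 lower and 1 past it. For 64 genes (0.325%) each Alb animal lay above all 8 ff and Vill animals, and for 118 genes (0.599%) each lay below.

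For single genes the 2 sets were close for Idi1 (log2 -0.93 against ff and -0.79 against Vill), Hsd17b12 (-0.45 and -0.36), Cirbp (0.75 and 0.66) and Fgfr2 (0.47 and 0.58). Pcca itself was 0.60 higher in Alb than in Vill (edgeR adjusted p 0.46), where Cre acts on the gene in the epithelium, and -0.08 against ff. Mt1 had opposite signs, 0.83 against ff and -1.40 against Vill, and the Vill animals held 190 to 352 CPM. Ocrl was 0.36 above ff and 0.16 above Vill, and Alg14, a subunit of the glycosyltransferase that starts N-glycans, was -0.50 against ff and -0.19 against Vill. Whether the differences of a gene against ff and against Vill are unequal was not tested.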

How the data were processed

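RNA of 8 chow colons (4 Alb, 4 ff) and of 4 Vill colons was analysed. Per the labels, poly-A RNA was sequenced commercially; the labels do not settle whether strand was kept. Tools listed without roles in the submitters' processing notes are edgeR 3.22.5, DESeq2 1.20.0, featureCounts 1.5.0-p3 and HISAT2 2.0.5, and the build is mm39. The deposited table holds raw read counts per gene, per the file headers (56748 genes, 22157 without a read in chow); 12 FPKM columns of samples and 1 table of the high fat diet were not used, nor were the authors' fold changes and p-values.

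Counts of 12 libraries were fitted together by the quasi-likelihood method of edgeR 4.0.16 in R 4.3.3, after filterByExpr and with TMM factors, and the Alb against ff contrast was adjusted over 19701 genes by Benjamini and Hochberg. limma-voom (limma 3.58.1) and DESeq2 1.42.0 were alternatives; DESeq2 gave no adjusted p for 805 genes. CPM use TMM-scaled library sizes. Log2 fold changes are Alb minus ff. The scripts were checked on simulated counts.

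Members and the 47 gene lists (580 tested genes) were chosen with earlier results of these data known. Named genes were Pcca, Pccb, Vil1 and Alb, genes called by any tool, the 30 smallest p-values at a mean of 2 CPM or more, the 5 smallest p-values of each list, and the 5 largest differences in each direction without overlap at 2 CPM and an unadjusted p under 0.05; genes outside this rule are said to be so, and some genes are not reported here. The labels number the replicates, taken here as separate mice, without saying so and without giving the litter or collection day of each; p-values measure only the spread between these samples, which may be partly technical.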

Additional observations from a re-analysis of the deposited data

Results flagged for a closer look

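Of 290 sets of 4 values examined (98 genes and 47 lists in each of Alb and ff), 15 had 1 animal far from its 3 groupmates, by the ratio of its gap to the range of the group. For independent normal values the cutoff used would flag about 1 in 20 sets. These sets share libraries and include genes picked for small p, so their own rate is not known.

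In Alb, animal 2 stood apart for the squamous keratins Krt5 (39.7 CPM, others at most 0.40) and Krt14 (35.1 CPM, others at most 1.20), was low for Cd101 (0.18 CPM, others 0.28 to 0.29), and had the lowest mean of the T and cytotoxic lymphocyte list (0.29 log2 CPM, others 1.55 to 1.76). Alb 3 was low for the transcript 2010010A06Rik (2.29 CPM, others 3.48 to 3.72), high for Alg14 (14.2 CPM, others 10.7 to 11.0), and highest for small intestine genes (2.53 log2 CPM, others 1.26 to 1.43). Alb 4 was high for the mast cell list (0.16 log2 CPM, others -1.19 to -1.08).

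In ff, animal 2 was high for Srebf2 (326 CPM, others 248 to 260), for Mcpt1 (29.5 CPM) and Mcpt2 (10.3 CPM), and for the glycolysis list (7.87 log2 CPM, others 7.42 to 7.49). Animal ff 3 was low for Acat2 (27.1 CPM, others 34.2 to 35.2) and for the immediate early list (3.94 log2 CPM, others 4.44 to 4.53). Animal ff 1 was low for Fasn (182 CPM, others 216 to 219). For Srebf2 the values of ff 1, 3 and 4 also lie above every Alb value (198 to 240 CPM). For Acat2 and Fasn the animal that stands apart is the ff value nearest to Alb.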

How the results depend on the processing

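The count of called genes was 0 under every alternative except DESeq2, which gave 11. The higher count at an unadjusted p under 0.05 was 563 with no filter on low counts and 725 with the smooth muscle covariate, and the lower count 920 with that covariate. Leaving out each animal gave 268 to 577 higher (577 without ff 2) and 321 to 761 lower (321 without ff 4, 344 without Alb 1), and 422 to 810 and 478 to 735 without overlap, where fewer animals are compared. Over those fits Pcca ranged from -0.22 to 0.023 (reversed without ff 3), Pccb from -0.055 (without Alb 2; -0.043 without ff 2) to 0.13, and Vil1 from -0.31 to 0.042 (without ff 2). Without Alb 2 the lowest values were reached by Per3 (-0.14 to 0.97), Dbp (-0.43 to 0.76), Tef (-0.22 to 0.65), Ciart (-0.17 to 1.17) and Krt14 (-0.011 to 3.46). The clock output covariate, chosen after seeing the data, gave -0.25 for Per3, -0.53 for Dbp, -0.37 for Tef and -0.34 for Ciart, and limma-voom gave -0.074 for Dbp and -0.063 for Tef. The cause was not tested. Of 1740 values of named genes under alternatives 1715 kept their direction and their side of the threshold, 14 reversed and 11 came to pass it. The main fit called 0 genes, so keeping that side says little. Of 846 list medians 843 moved by less than 1 SD between animals, taken from the group with the larger SD. A median could change sign within that margin. The clock output median went from 0.45 to -0.14 without Alb 2, where the SD was 0.95.

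Same-numbered ff and Alb animals had correlations of -0.02, -0.46, -0.20 and 0.47, so over all genes the numbers were not taken to pair the samples, although Per2, Dbp and Tef were high in animals 1 and 2 of both groups. Of the Alb animals only number 4 correlated best with its own number. With the replicate block, 0 genes were called, 256 were higher and 429 lower at an unadjusted p under 0.05, and Pcca stood at -0.07.

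The median SE over all genes was 0.26 with 4 animals a group.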
